A study of Caenorhabditis elegans with 2 samples.

Results

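The X chromosome carried 442 of the 1910 ELT-1 binding peaks that passed the authors' irreproducible discovery rate threshold (IDR, which keeps peaks whose ranks repeat between replicates). Members were all IDR peaks on chrX of the C. elegans build ce11, each placed by its summit, the base of highest signal. They were compared with the 1440 IDR peaks of the 5 autosomes, which together with X make 1882 nuclear peaks. The peaks come from chromatin immunoprecipitation and sequencing (ChIP-seq) of ELT-1 tagged with eGFP, from L3 larvae collected whole and of mixed sex, with 2 biological replicates in a single group. The strain, OP354, has the genotype unc-119(tm4063) III; wgIs354, and per the labels wgIs354 is an insertion for elt-1, which supplies the tagged protein. Both replicates were of this strain, and no second condition or genotype exists. The labels give the sex as pooled males and females, without proportions. Whole larvae were used, so a peak cannot be assigned to a cell type.

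ELT-1 is a zinc-finger transcription factor of the GATA family, which is required for epidermal fate in the C. elegans embryo and acts in larval epidermis and seam cells. GATA factors bind short sequences with GATA at their core, most often written WGATAR, where W is A or T and R is A or G. The X chromosome is distinct from the autosomes in this species. Hermaphrodites have a pair of X chromosomes and males have one, a condensin-based dosage compensation complex lowers X transcription in hermaphrodites, and X genes are largely silent in the germline. On the autosomes, central regions hold more conserved and broadly expressed genes while the arms are richer in repeats and repressive chromatin. That division is weaker on X.

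The DNA under 8 X summits is printed because these are the 6 strongest X peaks, a peak at an epidermal junction gene with a moderate signal, and a strong peak with no WGATAR site. Each run reaches 50 bp to either side of the summit, plus strand, 5′ to 3′, from the RefSeq WBcel235 (ce11) sequence, and capitals mark WGATAR or its reverse complement, where neighbouring sites may overlap. The windows are chrX:12671780-12671880 (nhr-17), chrX:15470129-15470229 (sprr-1), chrX:10769497-10769597 (sma-9), chrX:12511507-12511607 (scd-1), chrX:6743934-6744034 (mdl-1), chrX:13539851-13539951 (cah-4), chrX:5479086-5479186 (dlg-1) and chrX:2242955-2243055 (rpl-11.2). Names are those of the protein-coding gene with the nearest transcript start. The nhr-17 window has 2 sites, sprr-1 has 11 in a short tandem repeat, sma-9 has 3, scd-1 has 2, mdl-1, cah-4 and dlg-1 have 1 each, and rpl-11.2 has 0.
nhr-17: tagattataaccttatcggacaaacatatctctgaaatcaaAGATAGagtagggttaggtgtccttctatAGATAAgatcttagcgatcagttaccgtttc
sprr-1: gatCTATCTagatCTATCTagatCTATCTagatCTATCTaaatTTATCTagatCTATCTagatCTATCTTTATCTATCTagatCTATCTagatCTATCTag
sma-9: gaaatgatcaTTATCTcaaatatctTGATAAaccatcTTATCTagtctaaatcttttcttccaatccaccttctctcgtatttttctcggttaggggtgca
scd-1: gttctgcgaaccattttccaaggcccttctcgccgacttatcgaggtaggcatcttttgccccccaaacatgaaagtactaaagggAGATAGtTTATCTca
mdl-1: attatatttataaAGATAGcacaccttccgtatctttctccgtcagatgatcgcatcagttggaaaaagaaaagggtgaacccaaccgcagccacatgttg
cah-4: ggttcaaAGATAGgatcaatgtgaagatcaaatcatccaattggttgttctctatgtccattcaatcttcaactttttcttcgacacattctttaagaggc
dlg-1: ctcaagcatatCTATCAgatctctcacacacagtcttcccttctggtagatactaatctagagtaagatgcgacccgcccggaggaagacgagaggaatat
rpl-11.2: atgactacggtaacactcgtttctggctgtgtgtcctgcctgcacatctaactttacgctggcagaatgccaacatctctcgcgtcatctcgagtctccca

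The strongest X peak lay in intergenic DNA 3976 bp upstream of nhr-17, which encodes a nuclear hormone receptor. Its signal, the authors' own value for each peak, was 386.84 in the pooled list, 195.376 in replicate 1 and 195.571 in replicate 2. It ranked 2 among the peaks of replicate 1 and 5 among those of replicate 2. The next peak, at 232.7, lay in an intron of sprr-1, which encodes a neuropeptide receptor. Its replicate signals were 111.7 and 122.1, and its summit stood within the tandem repeat shown above, where 9 of the 11 sites were AGATAG. Rank 3, at 204.7, lay in an intron of sma-9, which encodes a Schnurri-like zinc-finger protein of the DBL-1 (BMP) body size pathway. Replicate 1 gave it 59.3 and replicate 2 gave it 145.9, the widest gap between replicates among these 3 peaks.

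The other peaks among the 10 strongest had pooled signals from 149.4 to 188.0. They lay in an intron of scd-1, next to mdl-1, which encodes a MAD-like basic helix-loop-helix factor, upstream of cah-4, a carbonic anhydrase gene, at the starts of F09A5.3 and K08H2.7, upstream of tatn-1, a tyrosine aminotransferase gene, and upstream of nhr-35. The mdl-1 summit was 1633 bp downstream of that gene's start and inside a non-coding RNA exon. Ranks 11 to 20 had signals from 112.9 to 142.3 and lay nearest to K08B5.2, mec-7, let-4, sma-9, C15H9.5, C06E2.5, nhr-71, gpc-1, F38B6.6 and pbo-6. The mec-7 summit sat in an intron of deg-1, a degenerin channel gene, and mec-7 encodes the β-tubulin of touch receptor neurons. The let-4 summit, at 131.1, sat in an intron of the neighbouring gene C44H4.4, and let-4 encodes a leucine-rich repeat protein of the epidermal apical matrix. All 20 had a peak within 100 bp in both replicates' lists. With X cut into 3 equal lengths, 12 of the 20 lay in the right segment, 7 in the middle segment and 1 in the left segment.

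X peaks had about the same median signal as autosomal peaks and a lower maximum. The X signals ran from 27.8 to 386.84 with a median of 40.01, and the autosomal signals from 27.7 to 1858 with a median of 40.6. Both sets began at nearly the same lowest signal, so the comparison covers only peaks above that level. The autosomal values include peaks within 20 kb of elt-1 and unc-119, the genes named with the strain's insertion and mutation. Their part in the autosomal maximum was not tested. Of X peaks, 49.1% were in the part above the median nuclear IDR signal (exact 95% interval 44.3 to 53.9), against 50.3% of autosomal peaks. For the top 25% the shares were 26.2% and 24.7%, and for the top 10% 10.6% and 9.86%. None of the 3 differences passed Fisher's exact test (adjusted p = 0.703 for each). Median width was 340 bp and median GC content was 42.6% on both.

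The shares of X peaks found again in the single replicates were close to those of autosomal peaks. A summit within 100 bp was found among the 1882 strongest peaks of replicate 1 for 67.6% of X peaks and 69.6% of autosomal peaks, and among those of replicate 2 for 83.9% and 81.7%. Both replicates gave one for 56.3% (exact 95% interval 51.6 to 61.0) and 55% (52.4 to 57.6). These shares did not pass Fisher's exact test (adjusted p = 0.662 for each). In the whole lists, a peak within 100 bp was present for 420 X peaks in replicate 1, with a median signal of 14.95, and for 434 in replicate 2, with a median of 27.04. Among strong X peaks, the one upstream of bcat-1 (pooled signal 110.7) had none within 100 bp in replicate 1 and a signal of 58.5 in replicate 2. Peaks farther away were not matched, here and below, so a missing match does not mean that a replicate had no signal. Over the 412 X peaks found in both lists, Pearson's r of log2 signal was 0.55 and Spearman's rho was 0.475, given as a description across peaks of the same 2 libraries.

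**Figure D1:**
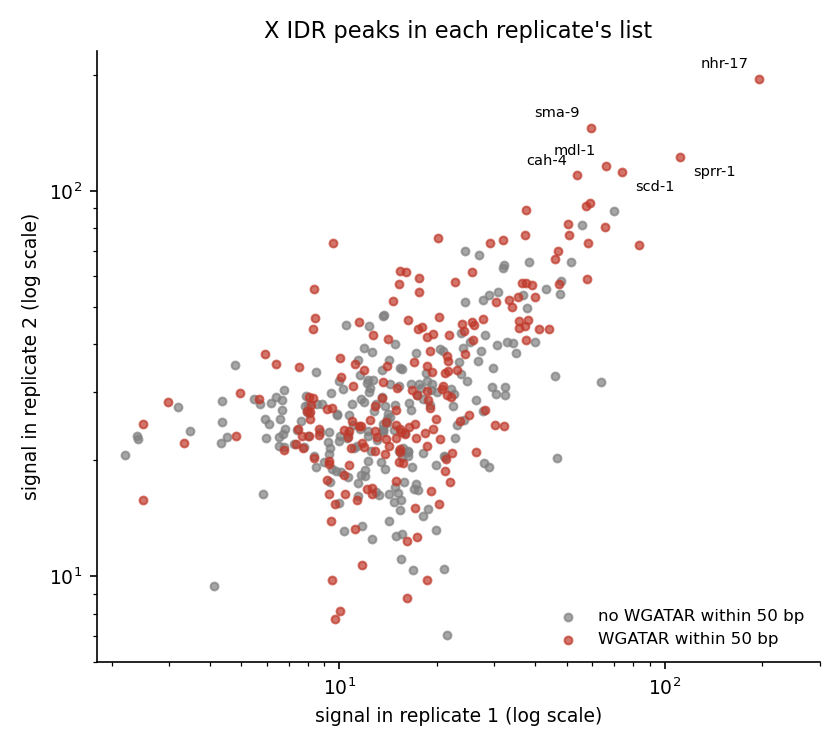
Each point is 1 of the 412 X IDR peaks found in both replicates' lists, by its signal in replicate 1 (x axis) and replicate 2 (y axis), both on log scales and in the authors' units, and coloured by the presence of a WGATAR site within 50 bp of the summit. The 6 strongest peaks are named by their nearest gene, and nhr-17 lies apart at 195.376 and 195.571.

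ELT-1 peaks were denser on X than on any autosome, most of all per gene. X had 162 IDR peaks per 1000 protein-coding genes, and the autosomes ranged from 61.9 on V to 103 on III. The IDR list held 7.85% of the pooled X peaks, where pooled means the authors' relaxed list of peaks and background from both replicates together, and 5.92% of the pooled autosomal peaks. The range over single autosomes was 5.39% to 6.59%. Pooled peaks more than 500 bp away from any IDR summit are called remaining peaks, and X had 5121 of them against 22668 on the autosomes. Every IDR peak had a higher signal than every remaining peak. The lowest IDR signal was 27.75 on X and 27.70 on the autosomes, and the highest remaining signal was 27.60 and 27.68. Comparing IDR with remaining peaks therefore separates the pooled list by signal. The odds of being an IDR peak and not a remaining one were 1.36 times higher on X (Fisher's exact test, p = 1.24e-07). Remaining peaks themselves were near their expected number from length on X, at 1.04 times. Taking the 1882 strongest peaks of a single replicate put 428 on X for replicate 1 and 450 for replicate 2, which is 1.29 and 1.35 times the number expected from length. On the older build ce10, 23.5% of the authors' nuclear IDR peaks were on X, the same share as on ce11. Neighbouring peaks are not independent, so p-values and intervals over peaks are too small and hold for these lists only.

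Per Mb, the density on X was above that of the autosomes in the outer segments and not shown to differ in the middle. In the middle segment, X had 25.9 IDR peaks per Mb and the autosomes 25.5, a ratio of 1.02 (exact 95% interval 0.847 to 1.21, exact binomial test, adjusted p = 0.858). In the left segment, X had 20.5 per Mb and the autosomes 13.7, a ratio of 1.49 (1.21 to 1.83, exact adjusted p = 3.13e-04). In the right segment, X had 28.4 per Mb and the autosomes 13.1, a ratio of 2.17 (1.799 to 2.62, exact adjusted p = 1.02e-14). Segments are 3 equal lengths of each chromosome, which for X end at 5906314, 11812628 and 17718942. With the 941 strongest IDR peaks alone, the left-segment ratio was 1.26 and did not pass (exact adjusted p = 0.203).

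**Figure D2:**
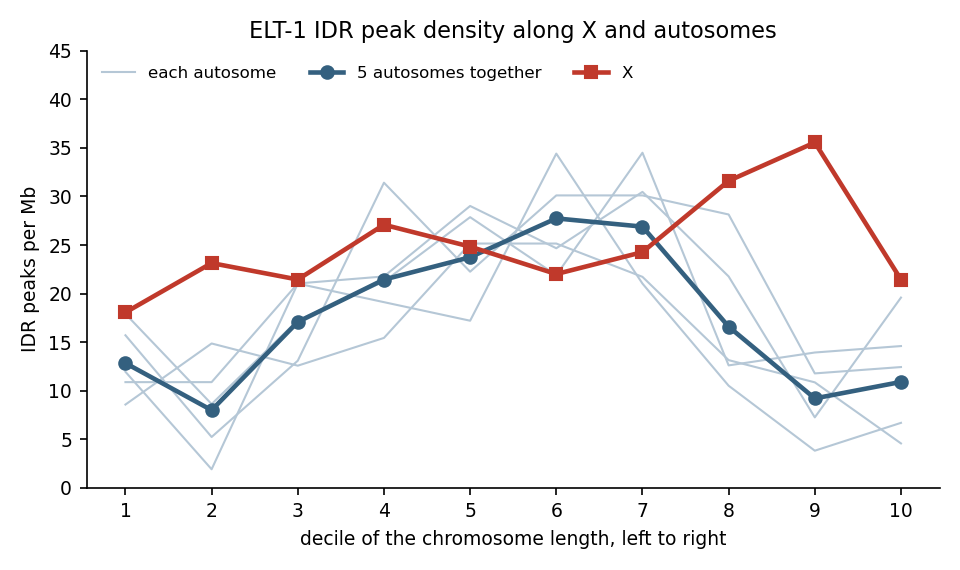
IDR peaks per Mb (y axis) in each decile of the chromosome length from left to right (x axis), for X (red), the 5 autosomes together (dark blue) and each autosome (pale lines). The autosomes together rise from 7.995 in the second decile to 27.7 in the sixth and fall to 9.21 in the ninth, where X reaches 35.6.

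Every autosome was densest in its middle segment, and X was not. Middle-segment densities were 28.3 per Mb on I, 28.3 on II, 26.99 on III, 21.8 on IV and 23.7 on V. Right-segment densities on the same chromosomes were 13.7, 18.7, 16.3, 10.8 and 8.32. The X right segment, at 28.4, was therefore above the outer segments of all 5 autosomes and level with their densest middles. Of X peaks, 34.6% lay in the middle segment, against 48.8% of autosomal peaks (Fisher's exact test, odds ratio 0.557, p = 1.52e-07). Remaining peaks showed a smaller difference, 32.9% on X and 36.6% on the autosomes, an odds ratio of 0.852. The 2 odds ratios differed (Breslow-Day chi-square test, p = 2.86e-04).

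The same contrast held for the share of peaks that passed the threshold. In the right segment of X, IDR peaks made up 9.09% of IDR and remaining peaks together, against 4.75% on the autosomes (odds ratio 2.00, exact adjusted p = 2.39e-11). In the left segment the shares were 6.46% and 5.01% (odds ratio 1.31, exact adjusted p = 0.0231), a call that was lost without replicate 1 (odds ratio 1.26, exact adjusted p = 0.0531) and among the 941 strongest IDR peaks (odds ratio 1.10, exact adjusted p = 0.778). In the middle segment they were 8.32% and 7.81% and did not pass the test (odds ratio 1.07, exact adjusted p = 0.448). Gene density was lower on X than on the autosomes in each segment, with 147, 165 and 150 protein-coding genes per Mb on X and 195, 239 and 193 on the autosomes. Per 1000 genes, X had more peaks than the autosomes in all 3 segments, given without a test: 139 against 70.4 on the left, 157 against 107 in the middle and 190 against 67.9 on the right. The middle-segment ratio of 1.02 is therefore a value per Mb and not per gene.

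**Figure D3:**
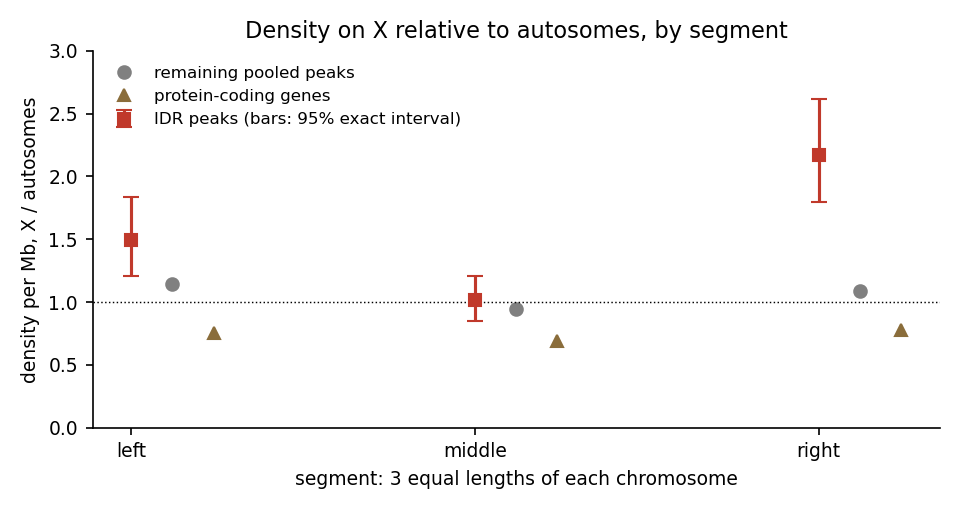
Density per Mb on X divided by that on the 5 autosomes (y axis) in each segment of the chromosome length (x axis), for IDR peaks (red squares, bars give the exact 95% interval), remaining pooled peaks (grey circles) and protein-coding genes (brown triangles). The IDR ratio is 1.49 on the left, 1.02 in the middle and 2.17 on the right, while the genes lie below 1 in each segment.

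Within X, the left segment had the fewest peaks, and the tests of this depended on the setting. The left segment had 121 peaks, the middle segment 153 and the right segment 168. The left count was 0.821 times an even spread (exact binomial test, adjusted p = 0.0224), and the right count, at 1.14 times, did not pass (adjusted p = 0.0579). The left call was lost without replicate 2 (0.855 times, exact adjusted p = 0.0972) and after leaving out summits within 1000 bp of a stronger one (0.848 times, exact adjusted p = 0.0893). Against the remaining X peaks, which were spread evenly at 34.2%, 32.9% and 32.8%, the left segment was depleted (odds ratio 0.724, exact adjusted p = 0.00987) and the right segment enriched (odds ratio 1.25, adjusted p = 0.0408). Without replicate 2, neither call held (odds ratios 0.805 and 1.23, exact adjusted p = 0.0813 for each), and the right one was also lost after leaving out the summits near a stronger one (odds ratio 1.23, exact adjusted p = 0.0788). Median signal was 38.9, 39.05 and 43.0 from left to right. Over 1-Mb bins, X held from 13 to 37 IDR peaks. The largest stretch without one was 273074 bp, from 17151365 to 17424439.

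Groups of neighbouring peaks marked a few loci. Neighbouring X summits were a median of 22335 bp apart, and 37.8% had another within 5 kb, against 41.1% on the autosomes. There were 8 runs of at least 4 summits with gaps of at most 5 kb. The longest by count had 7 summits over 6096 bp around the start of sma-9 (gene at 10769282 to 10782973, plus strand), with signals from 34.5 to 204.7. A summit 2971 bp upstream of the nearest sma-9 start reached 129.3, with 50.6 in replicate 1 and 82.0 in replicate 2. The promoter summit of sma-9 had 72.7, with 15.3 and 57.2 in the replicates. A WGATAR site was within 50 bp of 4 of the 7 summits.

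The other runs were at R03E9.2 and mdl-1 (6 summits, highest signal 174.5), at nhr-137 and the collagen gene col-172 (5 summits, 52.0), at M163.1 and fbxa-141 (5 summits, 89.5), and, with 4 summits each, at scd-1 (188.0), F09A5.3 (160.9), nhr-1 (86.9), and his-24 with M163.8 (50.4). The gene his-24 encodes a linker histone. All 4 summits of the scd-1 run had a WGATAR site within 50 bp, and 1 of 4 at F09A5.3 did. These 8 runs differ in strength, since the highest signal in 2 of them stayed under 53 while 4 exceeded 160.

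The location of IDR peaks relative to genes was not shown to differ between X and the autosomes in the main setting, with the values as follows. The promoter window, 1000 bp before to 200 bp after the start of a protein-coding transcript, held 179 X summits, 40.5% (exact 95% interval 35.9 to 45.2), against 44.9% of autosomal summits (odds ratio 0.837, Fisher's exact test, adjusted p = 0.448). Intergenic summits were 64.7% of X and 64.2% of autosomal peaks, intronic ones 26.9% and 27.7%, and exonic ones 8.37% and 8.13%, and none of these differences passed. With a window reaching 2000 bp upstream, the promoter share was lower on X (odds ratio 0.742, exact adjusted p = 0.0313).

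Among remaining peaks the same classes did differ. On X 48.4% were intergenic against 38.5% on the autosomes (odds ratio 1.503, exact adjusted p = 2.50e-38), and 26.9% against 33.2% were in promoter windows (odds ratio 0.743, adjusted p = 3.41e-18). Sequence as a whole gave a like contrast, with 44.5% of X and 35.8% of autosomal bases intergenic and 21.8% and 27.1% in promoter windows. IDR peaks were more often intergenic than remaining peaks by an odds ratio of 1.95 on X and 2.86 on the autosomes. That gain was smaller on X (ratio of the odds ratios 0.681, Breslow-Day chi-square test, adjusted p = 0.00441). For exons the odds ratios were 0.386 on X and 0.256 on the autosomes, and their difference did not pass the same chi-square test (adjusted p = 0.0796).

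**Figure D4:**
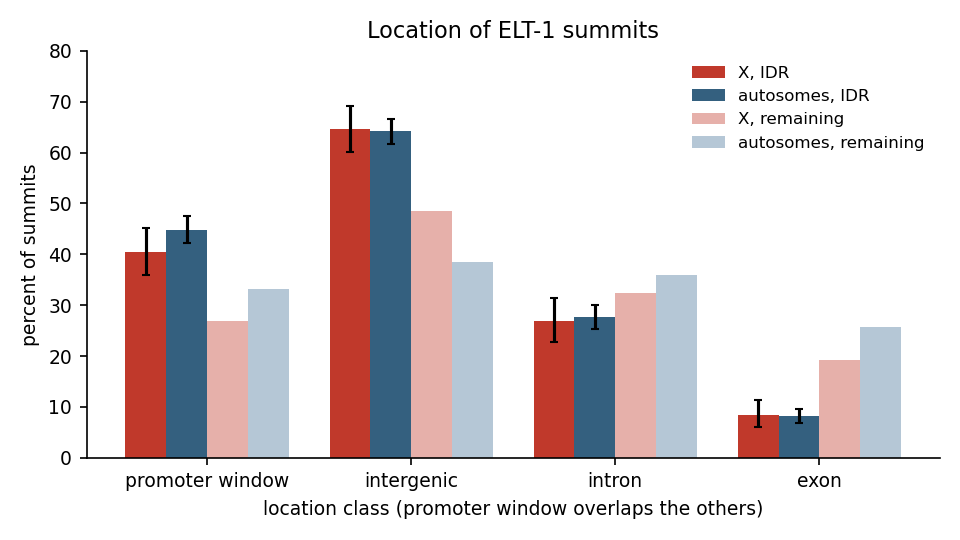
Percent of summits (y axis) in promoter windows, intergenic DNA, introns and exons (x axis) for IDR peaks on X (red) and the autosomes (dark blue), with exact 95% intervals, and for remaining pooled peaks on X (pink) and the autosomes (pale blue). The IDR bars for X and autosomes stand at 64.7% and 64.2% in intergenic DNA, and the remaining peaks at 48.4% and 38.5%.

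Distances from X summits to genes were slightly longer than on the autosomes, a difference that was not tested. The median distance to the nearest protein-coding transcript start was 1161 bp on X and 988 bp on the autosomes, and 33.5% (exact 95% interval 29.1 to 38.1) against 29.9% (27.6 to 32.4) lay over 2 kb away. Remaining peaks had the same direction, with medians of 1445 bp on X and 1105 bp on the autosomes, and 37.7% against 30.1% over 2 kb away. IDR summits within 200 bp of a start were 16.3% on X and 20.8% on the autosomes. Most IDR summits lay upstream of the nearest start, 69.9% on X and 71.9% on the autosomes. Of the X summits outside promoter windows, 155 were intergenic, 89 intronic and 19 exonic. An exon of a non-coding RNA held 8.14% of X and 7.99% of autosomal summits. A tRNA exon held 4 X summits and 1 autosomal summit, and 13 of the 276 X tRNA genes had an IDR summit within 200 bp, against 6 of 336 autosomal ones, given as counts without a test.

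GATA sites were found at 45.02% of X summits. A whole WGATAR site, on either strand, was within 50 bp of 199 of the 442 summits (exact 95% interval 40.3 to 49.8%). Of remaining X peaks, 23.98% had one (odds ratio 2.60, Fisher's exact test, adjusted p = 9.50e-20), and of all X positions taken as window centres, 21.4% did. On the autosomes the values were 38.4% of IDR peaks, 20.5% of remaining peaks and 19.5% of positions. The X share of IDR peaks was above the autosomal share (odds ratio 1.31, exact adjusted p = 0.0286), but so was that of remaining peaks (odds ratio 1.22, adjusted p = 2.37e-07). The gain of IDR over remaining peaks was 2.60 on X and 2.42 on the autosomes and was not shown to differ (Breslow-Day chi-square test, adjusted p = 0.881). The difference between X and autosomal IDR peaks no longer passed in 7 of the alternatives tried, where its odds ratio was between 1.20 and 1.41.

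Of the forms of the site, those beginning with A carried the gain. The form AGATAA was at 27.6% of X summits against 8.77% of remaining X peaks (odds ratio 3.97, exact adjusted p = 1.24e-26). The form AGATAG was at 14.03% against 4.32% (odds ratio 3.62, exact adjusted p = 5.25e-14). The form TGATAA was at 7.92% and 9.47%, and TGATAG at 3.85% and 3.73%, and neither passed the test (exact adjusted p = 0.384 and 0.896). Of X positions, 6.38% had the first form, 2.88% AGATAG, 9.94% TGATAA and 4.24% TGATAG within the same window. Against autosomal IDR peaks, with 21.9% and 8.54%, the odds ratio was 1.36 for AGATAA (exact adjusted p = 0.0286) and 1.75 for AGATAG (adjusted p = 0.00654). Among remaining peaks, X was also above the autosomes, with an odds ratio of 1.29 for each form (exact adjusted p = 1.90e-05 and 0.00212). The gain of IDR over remaining peaks was not shown to differ between X and the autosomes (Breslow-Day chi-square test, adjusted p = 0.881 for AGATAA and 0.297 for AGATAG). Both calls were lost without either replicate, with odds ratios of 1.37 and 1.33 for AGATAA and 1.41 and 1.24 for AGATAG.

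**Figure D5:**
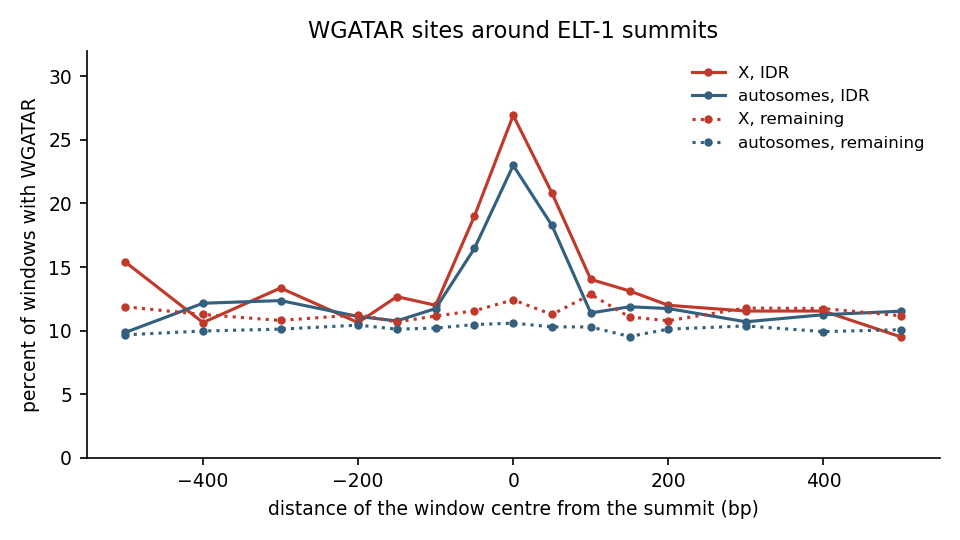
Percent of windows with a WGATAR site (y axis) against the distance of the window centre from the summit in bp (x axis), in windows reaching 25 bp to each side, for IDR peaks (solid) and remaining pooled peaks (dotted) on X (red) and the autosomes (blue). At the summit the values are 26.9% for X IDR peaks, 22.99% for autosomal IDR peaks and 12.4% for remaining X peaks.

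Sites were most frequent at the summit, and their share varied with signal and location, given here without a test. In windows reaching 25 bp to each side, 26.9% of X IDR peaks had a site at the summit. At 100 bp before and after it, 11.99% and 14.03% did. Among X summits with a site within 50 bp, the nearest one was a median of 17.5 bp away, against 18.5 bp on the autosomes, and 56.3% and 53.9% were within 20 bp. The 50 bp window itself limits these distances. In steps of 25% of nuclear IDR peaks from weakest to strongest, 39.6%, 36.0%, 46.5% and 57.8% of X summits had a site, and 28.3%, 34.0%, 38.8% and 52.7% of autosomal ones did. By location, 56.3% of intronic X summits had one (exact 95% interval 46.9 to 65.4), 40.6% of intergenic ones and 43.2% of exonic ones. The autosomal intronic share was 40.9% (36.0 to 45.9). Among promoter summits on X the share was 39.7%, against 48.7% outside promoter windows, and the autosomes had 31.7% against 43.8%. Along X the share was 47.1%, 45.8% and 42.9% from left to right, so the dense right segment was not the richest in sites. A single site was present at 142 X summits, 2 at 43 and 3 or more at 14.

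At the level of genes, 6.59% of protein-coding genes on X had their promoter window hit by an IDR summit, 180 of 2731, and 4.73% of autosomal genes did, 815 of 17242. The odds ratio was 1.42 (Fisher's exact test, adjusted p = 1.34e-04). Among genes with any pooled summit there, the shares were 15.03% and 11.6% (odds ratio 1.35, exact adjusted p = 0.00110). Counting instead the gene with the nearest transcript start, 13.1% of X genes (358) were nearest to at least 1 IDR summit, against 6.79% of autosomal genes. Of the 358, 33 had 2 such summits and 20 had 3 or more. Those with 4 or more were sma-9 (7), mdl-1 (5), and scd-1, F09A5.3, nhr-1, nhr-25 and M163.1 with 4 each. The 13 genes with 3 were igcm-3, F57G12.1, ftt-2 (a 14-3-3 protein), igdb-3, kin-20, nhr-48, nhr-3, nhr-137, his-24, svh-5, C33A11.2, ajm-1 and lin-14.

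Nuclear hormone receptor genes were frequent neighbours of X peaks. Nuclear hormone receptors are ligand-regulated transcription factors, a family much expanded in nematodes. Counts for gene lists here and below are descriptions without a test. Of the 27 family members on X, 12 were nearest to an IDR summit, 44.4%, against 13.1% of all X genes. On the autosomes 47 of 247 were, 19.03%, against 6.79% of all autosomal genes. In promoter windows the X count was 4 of 27, 14.8%, beside 6.59% of X genes. These were nhr-32 with a pooled signal of 68.4, nhr-137 with 51.9, nhr-1 with 47.1 and nhr-48 with 41.3. The nhr-137 summit lay in an intron of nhr-137, 131 bp downstream of a transcript start within the gene. The nhr-32 signal was 30.6 in replicate 1 and 39.9 in replicate 2, while the nhr-48 promoter peak had 10.6 in replicate 1 and no peak within 100 bp in replicate 2. Most peaks near the family were therefore outside promoter windows, among them those of nhr-17, nhr-35 (149.4), nhr-71 (118.3), nhr-91 (89.8) and nhr-25 (83.0).

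Epidermal regulators on X had peaks in and outside promoter windows. Of 4 listed epidermal and seam regulators, 1 had a promoter summit, sma-9, beside 6.59% of X genes, and 3 were nearest to a summit, beside 13.1%. Of the 14 autosomal ones, 3 had a promoter summit, 21.4% beside 4.73% of autosomal genes, and 8 were nearest to a summit, 57.1% beside 6.79%. The gene nhr-25, a nuclear receptor of the Ftz-F1 type needed for epidermal development and molting, had 4 summits. The strongest was 3568 bp upstream of a start with a pooled signal of 83.0 and replicate signals of 30.4 and 51.5, and another in an intron had 66.4, with 25.7 and 40.9. Of the 4 GATA factor genes on X, elt-2, elt-3, elt-4 and med-1, 0 had a promoter summit (exact upper 95% limit 60.2%). The gene elt-3, which encodes an epidermal GATA factor, had 1 summit nearest to it, 215 bp beyond the gene's end, with 38.8 in the pooled list, 15.3 in replicate 1 and 21.2 in replicate 2. For elt-2, the main intestinal GATA factor gene, the closest IDR summit was 50231 bp from a start. The distances were 44518 bp for elt-4 and 25617 bp for med-1.

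Cuticle genes with a promoter summit included both assembly factors and collagens. Of 6 listed genes of cuticle assembly and apical matrix on X, 4 were nearest to a summit, beside 13.1% of X genes, and 3 had a promoter summit, beside 6.59%: pdi-2, a protein disulfide isomerase that serves collagen modification (36.2), lpr-3, an apical matrix lipocalin (34.9), and sym-1, a leucine-rich repeat matrix protein (29.3). The replicate signals were 11.6 and 24.04 at pdi-2, 11.5 and 24.6 at lpr-3, and 9.28 and 19.5 at sym-1. The pooled signals of all 3 were below the median signal of the list. Of the 20 autosomal genes of this list, 5 were nearest to a summit, 25% beside 6.79% of autosomal genes, and 3 had a promoter summit, 15% beside 4.73%. Of the 27 col family genes on X, 1 had a promoter summit, 3.70% beside 6.59% of X genes. It was col-172 (52.0, with 22.03 and 29.2 in the replicates). Nearest to a summit were 4 of the 27, 14.8% beside 13.1% of X genes. Of 3 named dumpy collagen genes, dpy-3 had a promoter summit with 2 WGATAR sites (37.0, with 15.4 and 21.4), beside 6.59% of X genes. The other named ones, dpy-7 and dpy-8, had none.

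Counts of junction, signalling and timing genes on X with a promoter summit ran from 0 to 2 per list. Of 5 listed junction and attachment genes on X, 2 had promoter summits, beside 6.59% of X genes, dlg-1, the Discs large homologue of the epidermal apical junction (63.8, with 16.3 and 46.2), and ajm-1, a coiled-coil junction protein (38.6, with 14.3 and 25.95). The ajm-1 promoter summit also lay in a tRNA exon within an ajm-1 intron, and ajm-1 had 3 summits nearest to it. Of the 14 autosomal junction and attachment genes, 2 had a promoter summit, 14.3% beside 4.73% of autosomal genes. Of 13 hedgehog-related and Patched-related genes, 2 had promoter summits, 15.4% beside 6.59% of X genes. They were the neighbouring grd-4 (60.1, with 21.5 and 37.2) and grd-14 (31.0, with 17.3 and 17.4). Nearest to a summit were 4 of the 13, 30.8% beside 13.1% of X genes. On the autosomes 13 of 72 were, 18.1% beside 6.79% of autosomal genes. Of 4 heterochronic genes, which time larval cell fates, 1 had a promoter summit, beside 6.59% of X genes. It was kin-20, a casein kinase 1 gene (49.3, with 19.1 and 30.5). That summit lay in an intron of kin-20, 436 bp upstream of a transcript start within the gene. Of the same 4, 2 were nearest to a summit, beside 13.1% of X genes. The gene lin-14, which specifies early larval fates, had 3 intronic summits with signals from 27.9 to 36.6 and none in a promoter window. Of 3 Wnt pathway genes, 0 had a promoter summit, beside 6.59% of X genes. The β-catenin gene bar-1 was nearest to 1 summit with a signal of 28.5, beside 13.1% of X genes nearest to any. A stronger summit lay in an intron of the Wnt pathway gene mom-1, but its nearest transcript start was that of cest-16. Its signal was 91.5, with 9.56 in replicate 1 and 73.4 in replicate 2. Of 26 homeobox genes, 1 had a promoter summit, 3.85% beside 6.59% of X genes, and 2 were nearest to one, 7.69% beside 13.1%.

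Some genes that read X dose and set dosage compensation had promoter summits. Of 6 listed on X, 3 had one, beside 6.59% of X genes, and 4 were nearest to a summit, beside 13.1%. Of the 8 autosomal members 0 were in either count, beside 4.73% and 6.79% of autosomal genes, so a count of 0 among 8 is near the autosomal share. The 3 were fox-1, an RNA-binding X signal element (48.7, with 20.8 and 30.6 in the replicates), ceh-39, a ONECUT homeobox X signal element (27.9998, with 8.99 and 19.8), and sdc-2, which directs the dosage compensation complex to X (27.95, with no peak within 100 bp in replicate 1 and 13.3 in replicate 2). The fox-1 summit lay in an intron of fox-1, 203 bp upstream of a transcript start within the gene. The ceh-39 and sdc-2 signals are close to the list's lowest value of 27.8 on X. The gene xol-1, the early switch of sex determination, had its nearest summit 4922 bp upstream, with 92.1 in the pooled list, 32.1 in replicate 1 and 64.2 in replicate 2, and no WGATAR site within 50 bp.

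Marker genes of other tissues on X differed in their counts between lists. Of 8 body wall muscle genes, 7 intestine genes and 3 pharynx genes on X, 0 had a promoter summit and 0 were nearest to one, with exact upper 95% limits of 36.9%, 41.0% and 70.8%. Of 12 neuronal genes, unc-18, which serves synaptic vesicle release, had a promoter summit (32.7, with 8.11 and 26.6) and 5 were nearest to one, 41.7% beside 13.1% of X genes, among them mec-7 and the netrin gene unc-6 (37.6). On the autosomes 5 of 22 neuronal genes were nearest to one, 22.7% beside 6.79% of autosomal genes. No listed germline gene is on X. Of 11 cytochrome P450 and UDP-glucuronosyltransferase genes, 0 had a promoter summit and ugt-50 was nearest to one (82.2). Of the 2 ribosomal protein genes on X, rpl-11.2 had a promoter summit, beside 6.59% of X genes. Its signal was 90.3, with 24.3 in replicate 1 and 69.7 in replicate 2, and it had no WGATAR site. Of the 79 autosomal ribosomal protein genes, 33 had a promoter summit, 41.8% beside 4.73% of autosomal genes. The lists are short on X, so a count of 0 or 1 in most of them is not far from the 6.59% or 13.1% of all X genes.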

How the data were processed

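The data are ChIP-seq peak lists from 2 replicates. Per the authors' library file lists, long lists (peaks and background) were called from each replicate and from the pooled data with a control, which was not analysed here, and the IDR list was derived from them. The aligner, the caller and the IDR cutoff were not given in the sources used here. The deposited signal value of a peak is the authors' own and ranks peaks within a list, and the −log10 q value given by the authors is identical for all IDR peaks and so was not used to rank. The summit offset is a further deposited column. Read depth is unknown, so intervals cover counts of peaks or genes only.

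Summits on ce11 were set against the RefSeq WBcel235 sequence and Ensembl release 115 genes in Python 3.11.15 with scipy 1.17.1 and statsmodels 0.14.6. Intergenic, intron and exon refer to protein-coding genes. Tests were 2-sided Fisher's exact, exact binomial and Breslow-Day chi-square tests, with Benjamini-Hochberg adjustment within each family and a threshold of 0.05. Tests of X against autosomes by segment were added after the first results were seen. Tests were checked on simulated data. The members and the 20 gene lists were chosen with earlier results of these data known. Named genes are those nearest to the 20 strongest X summits, up to 4 members per list with a promoter summit, X GATA factor genes, and genes with 3 or more summits. Other genes named (bcat-1, nhr-91, ugt-50, bar-1, mom-1, cest-16, unc-6, xol-1, R03E9.2, fbxa-141, M163.8, deg-1, C44H4.4, dpy-7, dpy-8) were chosen after their values were seen. A few listed symbols, including miRNA genes, did not match and are not analysed here.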

Additional observations from a re-analysis of the deposited data

Results flagged for a closer look

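The excess of intergenic summits among IDR peaks over remaining peaks differed between X and the autosomes, which drew attention to it: the odds ratio on X divided by that on the autosomes was 0.681. The underlying odds ratios were 1.95 and 2.86. A like difference was found for position, where the odds ratio of lying in the middle segment, IDR against remaining peaks, was 1.08 on X and 1.65 on the autosomes, a ratio of 0.653. Gene density also differs between X and the autosomes, at 154 and 209 protein-coding genes per Mb, and its part in either result was not tested.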

How the results depend on the processing

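Of 183 values under alternative settings for 38 results, 130 kept direction and side of the threshold, 27 lost the call, 3 gained it and 23 changed direction. No paired analysis was possible because there is 1 group. X density stayed between 1.29 and 1.35 times expectation when a replicate was left out. It was 1.34 times after leaving out the 14 peaks within 20 kb of elt-1 and unc-119. Without a replicate, the right-segment ratio was between 2.11 and 2.25 and the middle-segment odds ratio between 0.504 and 0.569, and among the 941 strongest IDR peaks they were 2.57 and 0.499. The left-segment ratio ranged from 1.45 to 1.56 and lost its call among the 941 strongest IDR peaks (1.26). The middle-segment ratio, not called, ranged from 0.922 to 1.05 and was 0.929 among those. Its counterpart against remaining peaks ranged from 0.961 to 1.03 and was 0.980 there. Within X, the middle segment was at 0.995 and the right segment at 1.27 of an even spread among the 941 strongest, the latter a gained call. The right segment ranged from 1.13 to 1.18 without a replicate, and the value of 1.18, without replicate 1, was also a gained call. The middle segment against remaining X peaks ranged from 0.942 to 0.999.

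The WGATAR odds ratio between X and autosomes ranged from 1.20 to 1.32 without a replicate and was 1.32 among the 941 strongest. It was 1.23 within 25 bp, 1.26 within 100 bp, 1.41 in promoter windows and 1.22 outside them. In all of these settings the call was lost. The promoter odds ratio with 2000 bp upstream, 0.742, was a gained call. The remaining changes of direction concern values never called. In location they were intergenic among the 941 strongest (0.997), intron and exon after leaving out summits within 1000 bp of a stronger one (1.02 and 0.942), and exon without a replicate (0.754 to 1.15). For TGATAA against autosomes they were the 941 strongest and promoter windows (1.01 in both) and a left-out replicate (0.845 to 1.11). For TGATAG they were 100 bp (1.38) and promoter windows (1.60). Against remaining X peaks, TGATAA gave 1.24 among the 941 strongest and 0.797 to 1.11 without a replicate, and TGATAG 0.918 to 1.11. Signal above the median gave 1.20 among the 941 strongest and 1.01 by replicate 2, and the top 25% 0.945 to 0.998 without a replicate. The cause of these changes was not tested. Leaving out a replicate means taking the 1882 strongest peaks of the other. With 2 replicates and unknown depth, no spread between samples beyond this can be given.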
